A study of Mus musculus with 8 samples.

Results

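The genes described are those that build, bind and cut the extracellular matrix: collagens, laminins and fibronectin, the integrin receptors for them, and the metalloproteases with their Timp inhibitors. They were chosen by gene symbol alone (symbols of the form Col-a, Lam, Itg, Mmp, Timp and Adamts with a chain or family number, plus Fn1), and 99 of the 14954 genes in the table matched: 37 collagen chains, 11 laminin chains, fibronectin, 18 integrin chains, 11 matrix metalloproteases, 4 Timp inhibitors and 17 Adamts proteases. The rule uses no expression value, but it was set with earlier results of these data known. Only genes with a row could match, and no row had a mean under 15.1 scaled reads, the unit of the deposited values. RNA came from 8 cultures of neural progenitors differentiated for 12 days from a mouse embryonic stem cell line, A2lox.Cre Bcl6, which carries a tetracycline-inducible Bcl6 transgene. The 4 control cultures received DMSO and the 4 induced cultures 1 µg/ml doxycycline, for 24 h, and all 8 had earlier been given cyclopamine at 400 ng/ml, which inhibits hedgehog signalling. All cultures carry the transgene and none received doxycycline without it, so effects of Bcl6 and of doxycycline cannot be told apart. Per the labels' protocols, the stem cells had been kept on irradiated mouse embryonic fibroblasts and were then plated on gelatin, which is denatured collagen.

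Cells of a neuroepithelium stand on a basement membrane, a sheet woven from collagen IV and laminin networks. Integrins are pairs of an alpha and a beta chain that span the cell membrane and tie such matrix to the actin cytoskeleton; in the developing cortex they hold the end-feet of radial glia at the pial surface. Matrix metalloproteases and Adamts proteases cut matrix proteins and proteoglycans, and Timp proteins block them. Bcl6 is a transcriptional repressor that promotes the step from cortical progenitor to neuron.

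Levels are given as CPM, the deposited value divided by its library's total, so that each value is a share of that library's reads. Recovered depths were 9.42 to 9.74 M reads per control library and 10.33 to 15.02 M per induced library. Bcl6 stood at 6.61, 6.01, 7.12 and 6.21 CPM in control libraries 1 to 4 and at 393, 422, 427 and 325 CPM in induced libraries 1 to 4. The groups did not overlap. Of 14 markers listed for neural and cortical progenitors 12 had a row: Sox2 was at 257 ± 22.3 CPM in the controls (mean ± SD, n = 4 here and below) and Pax6 at 20.7 ± 2.47. Of these 12, 1 was called higher and 5 lower after induction (limma adjusted p under 0.05), where 4.55% and 2.26% of all genes were. Markers listed for other cell types had rows too, and the same shares of all genes stand beside their counts. The 11 pluripotency markers summed to 2205 to 2371 CPM in controls (5 called higher, 1 lower). Of 12 trophoblast markers 9 had a row and summed to 348 to 441 CPM (5 higher, 0 lower). These 9 include the keratins Krt7, Krt8 and Krt18, while Elf5, Gcm1 and Tpbpa had no row. In controls, 9 of 11 neural crest markers summed to 183 to 225 CPM (3 higher, 2 lower). Those of endothelium and blood, 10 of 14, summed to 72.7 to 88.1 CPM (0 higher, 1 lower). The endoderm, fibroblast and neuronal markers are given beside the genes they bear on. None of the listed markers with a row was at 0.

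Control library 1 differed from controls 2 to 4 along transcript length, and the transcripts of matrix genes are long. The median longest annotated transcript was 5564 bases among the 99 genes and 3336.5 bases among all genes. Control 1 was the lowest of the 4 controls for 53 of the 99 genes, against 32.6% of all genes. Its difference from the mean of controls 2 to 4 had a median of -0.26 (log2) over the 99 genes and 0.04 over all genes. Across the 99 genes, which share these 4 libraries and are not replicates, its Spearman rho with the length was -0.54. Over all 14924 genes with an annotated length this rho was -0.62. For controls 2, 3 and 4, each against the mean of its other controls, control 1 among them, rho was -0.02, 0.38 and 0.32 over the 99 genes. Over all genes with a length it was 0.16, 0.38 and 0.42. Leaving out control 1 need not remove every trend on length. The main comparisons below are therefore given with and without control 1.

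**Figure D1:**
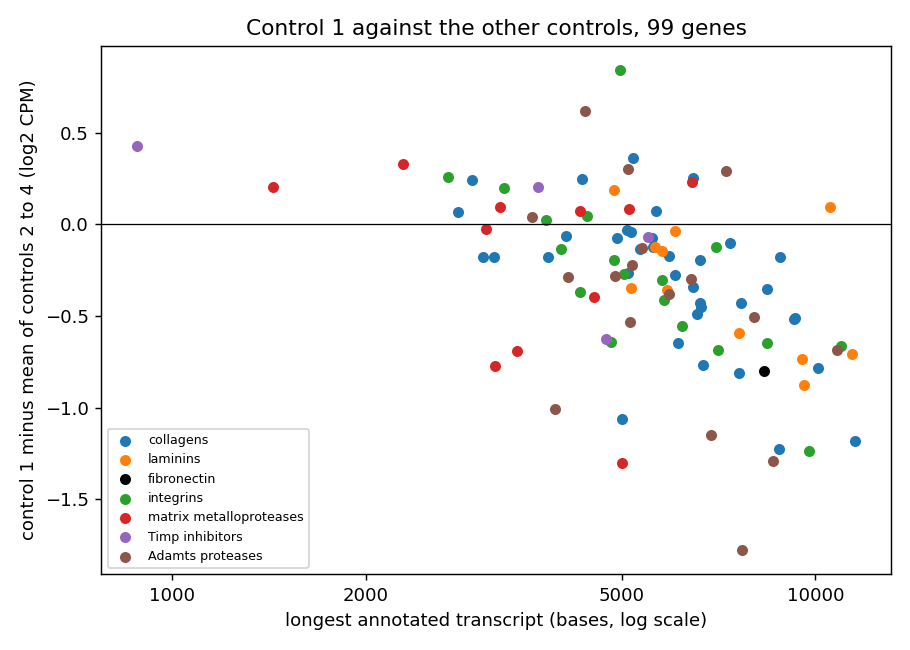
Difference between control library 1 and the mean of controls 2 to 4 (log2 CPM, vertical axis) against the length of the longest annotated transcript (bases, log scale) for the 99 genes, coloured by class. Longer transcripts lie lower: the Spearman rho is -0.54, and the median difference is -0.26.

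After induction of Bcl6 the collagens, laminins and fibronectin stayed, with 1 exception, short of the threshold, and the 8 genes of the 99 that passed were 4 proteases, 3 integrin chains and 1 collagen. With limma and Benjamini-Hochberg adjustment over all 14954 genes, 7 of the 99 were higher and 1 was lower at an adjusted p under 0.05. The higher ones were the proteases Mmp9, Mmp24 and Adamts5, the integrin chains Itga7, Itgb3 and Itga3, and the collagen Col5a2, and the lower one was the protease Adamts8. Over all genes 6.81% were called, 4.55% higher and 2.26% lower, so the share of these genes called, 8 of 99, was close to the background. The log2 fold change was above 0 for 70 of the 99 genes, against 55.4% of all genes, with a median of 0.15 against 0.03. That median was 0.11 with median-of-ratios and 0.09 with upper quartile scaling (all genes -0.0033 and -0.02). With these scalings 66 and 63 of the 99 genes were above 0, against 7381 and 6919 of all 14954. After removal of the trend on transcript length and GC, 55 of the 99 were above 0, against 7166 of all genes. The median was then 0.04, against -0.0093 over all genes. In 11 genes all 4 induced libraries lay above all 4 controls, and in 4 they lay below, against 10.8% and 6.32% of all genes. In bulk RNA, fewer cells of a type and less RNA per cell cannot be told apart.

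Without control 1, 8 of the 99 genes were higher and 6 lower, where 7.66% of all genes were called higher and 3.68% lower. All 8 genes called with the full set stayed called. The 6 that joined them were Col4a5, which was higher, and Itgb8, Lamb2, Adamts6, Adamts19 and Adamts20, which were lower. The Spearman rho of fold change with transcript length across the 99 genes was -0.07 with all libraries and -0.23 without control 1, against 0.20 and -0.04 over all genes. Without control 1, positive fold changes numbered 65 (background 56.6%), with a median of 0.10. By class, the genes higher and lower with all libraries were 1 and 0 of 37 collagens, 0 and 0 of 11 laminins, 3 and 0 of 18 integrins, 2 and 0 of 11 matrix metalloproteases, 0 and 0 of 4 Timp genes and 1 and 1 of 17 Adamts genes. Without control 1 they were 2 and 0 collagens, 0 and 1 laminins, 3 and 1 integrins, 2 and 0 matrix metalloproteases, 0 and 0 Timp genes and 1 and 4 Adamts genes. The median fold change of a class was 0.10 for collagens, -0.04 for laminins, 0.25 for integrins, 0.10 for matrix metalloproteases, 0.26 for Timp genes and 0.07 for Adamts genes. Only the collagen and Adamts medians changed sign with the trend on length and GC removed from every library, to -0.05 and -0.04.

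The counts moved with other libraries as well. They were 4 higher and 0 lower without control 2 (background 1.78% and 0.622%) and 12 and 2 without control 4 (3.99% and 1.6%). They were 3 and 1 without induced library 1 (1.41% and 0.649%) and 4 and 0 without induced library 2 (1.62% and 0.716%). Removal of the length and GC trend from all 8 libraries gave 7 higher genes and 10 lower (6.01% and 5.77%). Among the 10 were 4 collagens, 3 laminins, 2 Adamts genes and 1 integrin.

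**Figure D2:**
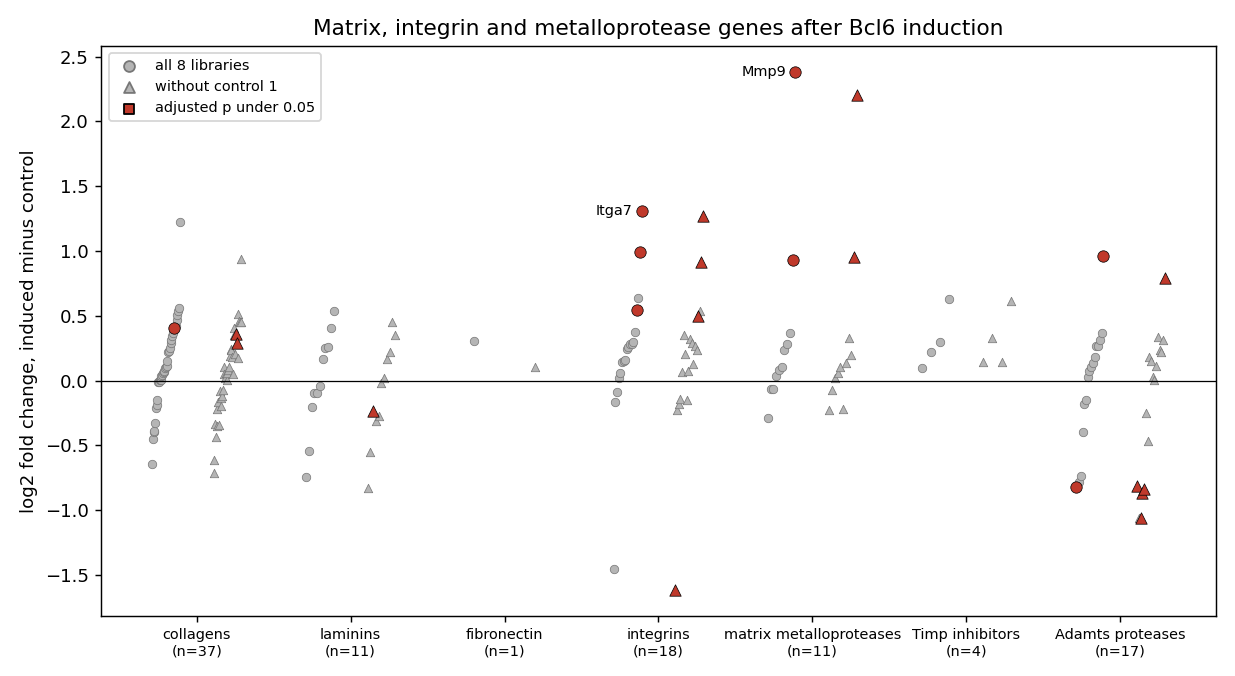
Log2 fold change, induced minus control (vertical axis), of each of the 99 genes by class, with all 8 libraries (circles) and without control 1 (triangles), red where the adjusted p was under 0.05. Mmp9 and Itga7 lie highest among the called genes, and called genes below 0 are mostly Adamts genes that pass without control 1.

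The collagens and laminins of the basement membrane were among the most abundant of the 99 genes. Per kb of longest annotated transcript, the control means were 109.7 CPM for Col4a1, 84.7 for Lamc1, 70.4 for Col18a1, 66.6 for Lamb1, 60.8 for Col4a2 and 22.8 for Lama1. Col4a1 and Col4a2 encode the chains of the common collagen IV trimer. Col4a1 stood at 571, 718, 670.0 and 943 CPM in controls 1 to 4 and at 1251, 1280.2, 790.0 and 967 CPM in induced libraries 1 to 4. Induced libraries 1 and 2 were above every control, whereas library 3 lay below control 4 and library 4 just above it. Its log2 fold change was 0.56 ± 0.18 (SE) with a limma adjusted p of 0.0824, and 0.45 ± 0.17 with an adjusted p of 0.106 without control 1. Col4a1 passed the test without control 4 (adjusted p = 0.0388) and without induced library 3 (adjusted p = 0.0437).

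Col4a2, its partner chain, was also highest in induced libraries 1 and 2, with 324, 359, 365 and 521 CPM in controls and 667, 664, 429 and 517 CPM in induced libraries, library 4 just below control 4 (log2 fold change 0.54 ± 0.17, limma adjusted p = 0.0824). It too passed without control 4 (adjusted p = 0.0287) and without induced library 3 (adjusted p = 0.0469). Without control 1 the Col4a2 fold change was 0.45 ± 0.17 (adjusted p = 0.105). The chains of the laminin trimer found in early basement membranes are encoded by Lama1, Lamb1 and Lamc1. Lama1 was at 142, 183, 225 and 318 CPM in controls and 358, 321, 230.0 and 309 CPM in induced libraries (adjusted p = 0.162, or 0.0375 without control 4), Lamb1 at 385 ± 42.1 and 466 ± 93.4 CPM (adjusted p = 0.271), and Lamc1 at 645 ± 127 and 715 ± 70.4 CPM (adjusted p = 0.496). The groups overlapped for all 3 genes. Without control 1 the log2 fold change of Lama1 went from 0.53 to 0.35 (limma adjusted p = 0.228). That of Lamb1 went from 0.26 to 0.22 (adjusted p = 0.324) and that of Lamc1 from 0.17 to 0.02 (adjusted p = 0.906). Extraembryonic endoderm, an early lineage outside the embryo proper, makes much collagen IV and laminin, and its 16 markers summed to 299, 293, 265 and 358 CPM in controls 1 to 4 and to 417, 401, 308 and 385 CPM in induced libraries 1 to 4. The 4 libraries with the highest sums, induced 1, 2 and 4 and control 4, were also the 4 with the most Col4a1 and Col4a2. The markers' part in these values was not tested, and 0 of the 16 passed the test, where 6.81% of all genes did.

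**Figure D3:**
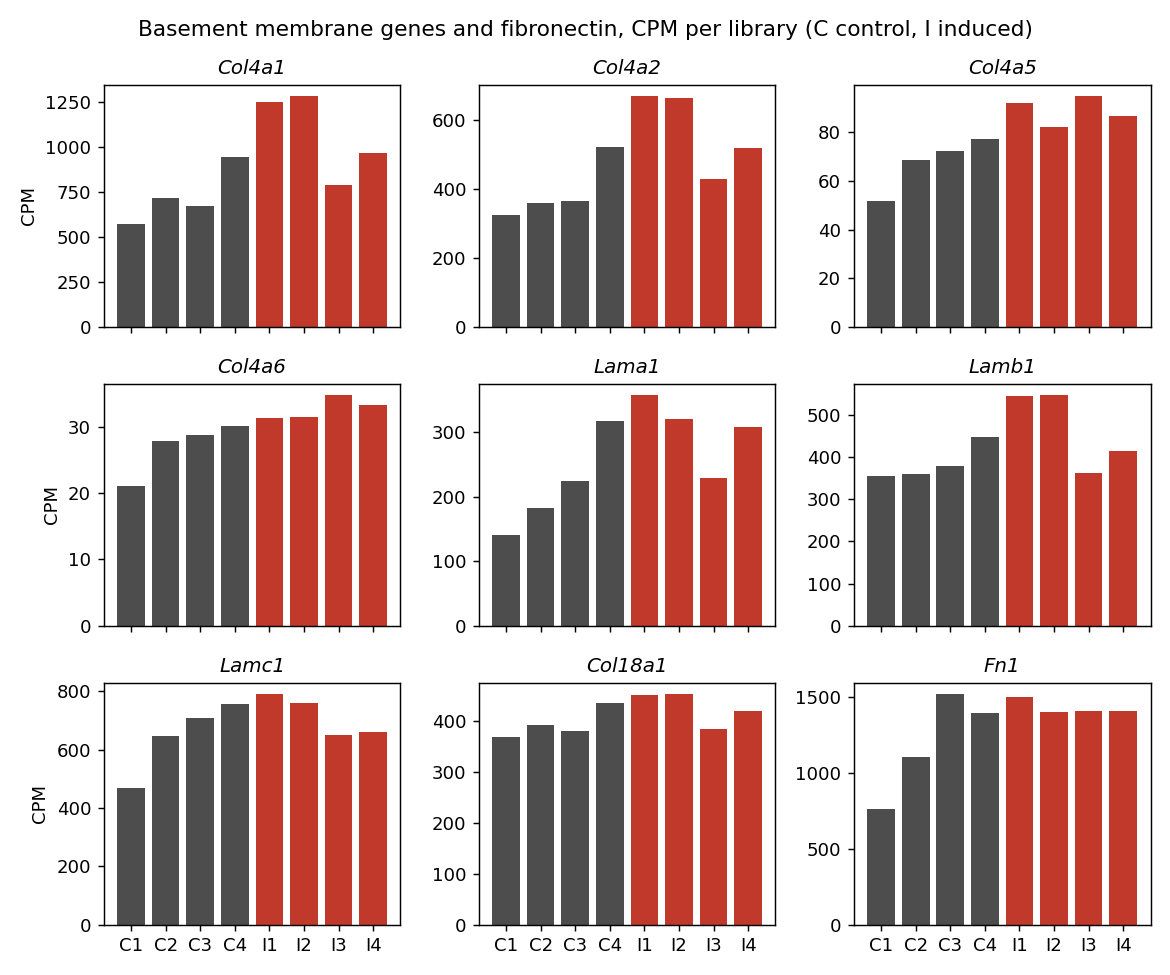
CPM (vertical axis, from 0) in each control (C1 to C4, grey) and induced library (I1 to I4, red) for basement membrane genes and fibronectin. Col4a1, Col4a2 and Lamb1 are highest in I1 and I2, Col4a5 and Col4a6 are higher in every induced library than in any control, and Fn1 is lowest in C1.

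Col4a5 and Col4a6 encode further collagen IV chains, which assemble with each other in other basement membranes. Col4a5 (chromosome X, 141475385 to 141689234, mm10) was at 51.8, 68.7, 72.4 and 77.2 CPM in controls and at 91.99, 82.4, 94.7 and 86.9 CPM in induced libraries. Every induced library was above every control. The fold change was 0.41 ± 0.12 (log2) with all libraries (limma adjusted p = 0.0581) and 0.29 ± 0.07 without control 1 (adjusted p = 0.0234); it passed also without control 4 (adjusted p = 0.0447). Col4a6, named after its values were seen, was at 21.1, 27.9, 28.8 and 30.2 CPM in controls and 31.4, 31.5, 34.8 and 33.4 CPM in induced libraries (log2 fold change 0.29 ± 0.11, adjusted p = 0.152). Its groups did not overlap either.

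These 2 genes lie head to head on chromosome X, with RefSeq starts 1343 bases apart (GRCm38.p6), so their upstream stretches are shown as the pair of ends of the interval they share. Each runs 5′ to 3′ on its own gene's strand, chrX:141474077-141474326 (minus strand) for Col4a6 and chrX:141475169-141475384 (plus strand) for Col4a5, and bases of annotated exons were left out. Capitals mark the GC box, GGGCGG, on either strand.
Col4a6: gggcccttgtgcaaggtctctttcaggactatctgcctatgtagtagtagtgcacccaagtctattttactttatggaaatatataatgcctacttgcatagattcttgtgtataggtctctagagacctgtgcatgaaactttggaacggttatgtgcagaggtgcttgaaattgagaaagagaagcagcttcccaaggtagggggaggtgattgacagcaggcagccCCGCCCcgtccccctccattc
Col4a5: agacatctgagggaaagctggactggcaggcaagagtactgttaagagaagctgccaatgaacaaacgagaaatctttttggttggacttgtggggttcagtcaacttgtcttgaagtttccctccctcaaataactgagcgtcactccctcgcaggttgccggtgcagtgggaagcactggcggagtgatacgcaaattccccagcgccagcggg
The Col4a6 stretch holds 1 GC box close to the start and the Col4a5 stretch holds 0. This motif was chosen after the sequences were at hand. It occurs within 250 bases upstream of the start in 32.7% of 32851 RefSeq promoters and in 45 of the 74 promoters listed for 67 of the 99 genes.

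Of the fibrillar and other collagens, Col5a2 rose. It encodes a chain of collagen V, which is laid down inside collagen fibrils and sets their width. Col5a2 (ENSMUSG00000026042, chromosome 1, 45374321 to 45503282, minus strand) was at 56.1, 69.02, 67.9 and 56.2 CPM in controls 1 to 4 and at 83.6, 84.4, 88.6 and 72.4 CPM in induced libraries 1 to 4. The lowest induced library was above the highest control. Its log2 fold change was 0.40 ± 0.10 (limma adjusted p = 0.0347), and 0.36 ± 0.09 without control 1 (adjusted p = 0.0314). The call was lost without control libraries 2 or 4 or induced libraries 1, 2 or 3 (adjusted p at most 0.112), and under median-of-ratios scaling (adjusted p = 0.0574), upper quartile scaling (adjusted p = 0.056), a fit without the variance trend (adjusted p = 0.0681) and removal of the length and GC trend (adjusted p = 0.0868).

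Abundant fibrillar chains gave overlapping groups. Col3a1, a collagen of soft connective tissue, was at 265 ± 32.3 CPM in controls and 315 ± 27.6 CPM in induced libraries (adjusted p = 0.137), and Col1a1 and Col1a2, the chains of the main collagen of bone and skin, were at 93.3 ± 15.4 and 136 ± 20.97 CPM in controls and 96.8 ± 7.98 and 158 ± 18.6 CPM in induced libraries (adjusted p = 0.775 and 0.273). Col18a1, a basement membrane proteoglycan, was at 394 ± 29.1 and 427 ± 31.9 CPM (adjusted p = 0.401). Of the fibroblast and mesenchyme markers, 13 of 18 had a row, with a median log2 fold change of 0.04. Of these, 12 did not pass the test, where 6.81% of all genes passed. The other, the contractile actin Acta2, rose from 75.7 ± 15.5 to 149 ± 14.5 CPM (adjusted p = 0.00329). Without Acta2 the markers summed to 134 to 163 CPM in controls and 135 to 174 CPM in induced libraries, which overlap; with it the sums were 189.9 to 249 and 275 to 332 CPM. The largest fold change among the collagens was that of a scarce one, Col6a6, at 0.451, 0.751, 1.35 and 1.15 CPM in controls and 3.56, 2.86, 1.60 and 1.10 CPM in induced libraries. Induced libraries 1 and 2 were high and library 4 lay below controls 3 and 4, and the adjusted p was 0.11. Fold changes were negative in 10 of 37 collagens, with Col11a2, a cartilage collagen, lowest (9.70 ± 3.48 and 6.14 ± 1.85 CPM, adjusted p = 0.158).

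No laminin passed the test with all libraries, and Lamb2, a chain of laminins at synapses and in mature basement membranes, was lower without control 1. Lamb2 stood at 103, 104, 121 and 110.1 CPM in controls and 100.2, 92.98, 91.9 and 94.9 CPM in the induced libraries, with no overlap. Lamb2 had a log2 fold change of -0.20 ± 0.07 (limma adjusted p = 0.125), and of -0.23 ± 0.07 without control 1 (adjusted p = 0.0447). Lama5, the other abundant alpha chain, was at 220.5, 293, 447 and 353 CPM and 323, 294, 289 and 287 CPM, and the 4 induced libraries lay within the range of the controls (adjusted p = 0.777). Lama4, an alpha chain of vessels and mesenchyme, chosen after its values were seen, was at 26.5, 32.9, 26.7 and 22.6 CPM in controls and 22.999, 19.8, 17.2 and 14.6 CPM in induced libraries (adjusted p = 0.0579, or 0.0488 without control 4 and 0.0491 with median-of-ratios scaling). Only 1 of its 8 leave-outs of a single library passed. Its adjusted p was 0.0525 without control 1 and highest, 0.163, without control 2. Lama4, Lama5 and Lamb2 were the 3 laminins lower after removal of the length and GC trend (adjusted p = 0.0237, 0.01 and 0.00186). The largest laminin fold change was in Lamc3, a scarce chain, with 1.002, 1.40, 1.15 and 1.30 CPM in controls and 0.551, 0.2, 1.35 and 1.45 CPM in induced libraries (adjusted p = 0.406). Its induced libraries 1 and 2 held 8 and 2 reads.

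Fibronectin, a soluble and fibrillar matrix protein bound by several integrins, was the gene of the 99 with the most reads per kb, 143 CPM in the controls. Fn1 was at 762, 1103, 1517 and 1390.2 CPM in controls 1 to 4 and at 1497, 1403, 1404 and 1407 CPM in induced libraries 1 to 4. The induced libraries were close together, and control 1 was far below the other controls. With control 1 the log2 fold change was 0.31 ± 0.17 (limma adjusted p = 0.312), and it was 0.11 ± 0.10 without control 1 (adjusted p = 0.492).

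Among the integrins, 3 of 18 chains rose and none fell with all libraries, where 4.55% and 2.26% of all genes did. The most abundant chains did not pass. Itga7, an alpha chain for laminin known from muscle, was at 1.60, 1.202, 2.51 and 1.80 CPM in controls 1 to 4 and at 4.26, 4.46, 4.71 and 3.91 CPM in induced libraries 1 to 4. All induced libraries lay above all controls. Its log2 fold change was 1.31 ± 0.23 with a limma adjusted p of 0.009, and 1.27 ± 0.25 without control 1. Itga7 (ENSMUSG00000025348, chromosome 10, 128933818 to 128958282, plus strand) stayed called in all 8 leave-outs of a single library (adjusted p at most 0.0381). The counts behind it were low, from 11 reads in control 2 to 64 in induced library 1.

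Itgb3 encodes a beta chain that with an alpha-v chain binds vitronectin and fibronectin. Itgb3 (ENSMUSG00000020689, chromosome 11, 104608000 to 104670476, plus strand) was at 6.61, 6.26, 8.83 and 9.87 CPM in controls and at 18.4, 18.5, 13.2 and 12.7 CPM in induced libraries. Induced libraries 1 and 2 were the highest, and the lowest induced library was above all controls. Itgb3 changed by 0.99 ± 0.19 on the log2 scale (limma adjusted p = 0.0127), 0.92 ± 0.19 without control 1, and the call was lost without induced library 1 (adjusted p = 0.0525). Its partner Itgav was at 48.2, 67.1, 76.7 and 90.4 CPM in controls and 87.5, 79.7, 72.95 and 87.4 CPM in induced libraries (adjusted p = 0.377). Control 1 was the lowest of the 8 libraries, and without it the controls averaged 78.1 ± 11.7 CPM (n = 3).

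Itga3, an alpha chain for laminin, was at 52.3, 54.4, 52.9 and 74.2 CPM in controls and at 88.5, 91.2, 75.6 and 83.5 CPM in induced libraries. Control 4 came close to induced library 3, and the groups did not overlap. Itga3 (ENSMUSG00000001507, chromosome 11, 95044474 to 95076801, minus strand) had a log2 fold change of 0.55 ± 0.12 (limma adjusted p = 0.0213) and of 0.50 ± 0.11 without control 1 (adjusted p = 0.0212). The call was lost without control library 2 or induced libraries 1 or 2 (adjusted p at most 0.0773), and in a fit without the variance trend (adjusted p = 0.0508).

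Itgb8 is a beta chain of radial glia that with alpha-v activates latent transforming growth factor beta. Its fold change was the largest of the 18 integrins, and downward. Itgb8 (chromosome 12, 119158022 to 119238802) was at 43.7, 75.8, 55.1 and 76.8 CPM in controls and at 15.7, 10.1, 35.8 and 43.7 CPM in the induced libraries. Induced libraries 1 and 2 were far below the rest, while library 4 came within 1 CPM of control 1. Its log2 fold change was -1.45 ± 0.40 with a limma adjusted p of 0.054, just short of the threshold, and -1.62 ± 0.42 without control 1 (adjusted p = 0.0329). Itgb8 was called lower without induced library 4 (adjusted p = 0.0252), under upper quartile scaling (adjusted p = 0.0466) and after removal of the length and GC trend (adjusted p = 0.0152). The summed neural progenitor markers were also lowest in induced libraries 1 and 2, at 1109 and 1135 CPM, against 1442 and 1425 CPM in libraries 3 and 4 and 1525 to 1968 CPM in controls. Their part in the Itgb8 values was not tested.

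The abundant integrins were Itgb1, the beta chain shared by most matrix receptors, Itga6, an alpha chain for laminin, and Itgb5, another partner of alpha-v. Itgb1 was at 476 ± 30.9 CPM in controls and 495 ± 28.2 CPM in induced libraries (log2 fold change 0.06 ± 0.07, adjusted p = 0.667). Itga6 was at 256, 336, 330.1 and 324 CPM in controls and 315, 289, 282 and 279 CPM in induced libraries, and its log2 fold change was -0.09 ± 0.09 with control 1, the lowest control, and -0.18 ± 0.06 without it (adjusted p = 0.6 and 0.0618). Itgb5 was at 101 ± 9.01 and 112 ± 10.9 CPM (adjusted p = 0.34). With array weights, which give less weight to libraries that vary more, Itgb5 was called higher (adjusted p = 0.0398).

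Of the 11 matrix metalloproteases 2 rose, Mmp9 and Mmp24, and 9 did not pass, where 4.55% of all genes rose. Mmp9 is a secreted gelatinase that cuts denatured collagens and collagen IV. Mmp9 (ENSMUSG00000017737, chromosome 2, 164940780 to 164955850, plus strand) stood at 0.651, 1.40, 0.853 and 1.15 CPM in controls 1 to 4 and at 5.86, 4.91, 6.41 and 4.26 CPM in induced libraries 1 to 4. The groups were well apart. The ratio of the mean CPM values was 5.28 and the log2 fold change 2.38 ± 0.26, with a limma adjusted p of 0.00116, and 2.20 ± 0.24 without control 1 (adjusted p = 0.000861). It rested on 6 to 13 reads per control library and 44 to 88 per induced library, and it held in all 8 leave-outs of a single library (adjusted p at most 0.00885). Markers of endothelium and blood, cells known for Mmp9, summed to 72.7 to 88.1 CPM in controls and 80.7 to 97.1 CPM in induced libraries, and those of trophoblast, also known for Mmp9, to 348 to 441 and 550.2 to 620.4 CPM. The trophoblast markers Elf5, Gcm1 and Tpbpa had no row, and the part of either set of markers in the Mmp9 values was not tested.

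Mmp24 is a membrane-anchored metalloprotease of the nervous system. Mmp24 (ENSMUSG00000027612, chromosome 2, 155775342 to 155818366, plus strand) was at 5.96, 6.01, 5.97 and 5.06 CPM in controls and at 12.5, 12.4, 8.72 and 10.8 CPM in induced libraries. The controls were close together and all induced libraries lay above them, libraries 1 and 2 highest. Mmp24 changed by 0.93 ± 0.15 on the log2 scale (limma adjusted p = 0.00571), 0.95 ± 0.16 without control 1, and the call held in all 8 leave-outs (adjusted p at most 0.0288). Neuronal markers summed to 919.6 to 1139 CPM in controls and 1480.0 to 1766 CPM in induced libraries. Of the 12, 6 passed the test, all higher, where 4.55% of all genes were called higher. The part of these markers in the Mmp24 values was not tested. An antisense gene, BC029722, shares 637 exon bases with Mmp24, and whether reads were counted by strand is not given in the sources used here; BC029722 was at 9.67, 5.51, 6.82 and 5.76 CPM in controls and 9.92, 8.97, 8.97 and 8.82 CPM in the induced libraries (adjusted p = 0.162).

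The 2 called genes with promoters in the RefSeq table, Mmp24 and Itga3, were searched for a Bcl6-type motif, TTCCTNGAA on either strand, within 250 bases upstream of the start, and neither held it. The Mmp24 stretch (chr2:155775092-155775341, plus strand, GRCm38.p6) is shown because its gene had the smaller adjusted p of the 2, with GC boxes in capitals.
Mmp24: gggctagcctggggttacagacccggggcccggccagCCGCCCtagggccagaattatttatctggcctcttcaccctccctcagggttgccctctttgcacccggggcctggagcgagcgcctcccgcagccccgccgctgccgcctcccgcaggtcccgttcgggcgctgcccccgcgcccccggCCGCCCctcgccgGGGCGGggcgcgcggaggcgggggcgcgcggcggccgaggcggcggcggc
It holds 3 GC boxes, 1 on the plus and 2 on the minus strand of the gene. In the 74 promoters of the 99 genes the Bcl6-type motif occurred in 2, those of Mmp23 and Lamb2, against 1.31% of all 32851 promoters. The matches are shown with 10 bases on each side and the motif in capitals, at chr4:155653370-155653398 (minus strand) for Mmp23 and chr9:108479644-108479672 (plus strand) for Lamb2.
Mmp23: ttcggcctggTTCCTGGAAtcgcaccggg
Lamb2: tcccttttagTTCCTCGAActaagctgct
Mmp23, a membrane-bound metalloprotease, was at 4.61 ± 0.415 CPM in controls and 5.64 ± 0.782 CPM in induced libraries (adjusted p = 0.295), and Lamb2 is described above.

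The metalloproteases with the most reads gave closely matched groups. Mmp2, the other gelatinase, was at 66.9 ± 1.42 CPM in controls and 64.6 ± 10.5 CPM in induced libraries (log2 fold change -0.06 ± 0.11, adjusted p = 0.758). Mmp14, the membrane-anchored protease that activates the Mmp2 precursor, was at 47.4 ± 4.17 and 49.96 ± 2.28 CPM (0.08 ± 0.08, adjusted p = 0.614), and Mmp11, a stromelysin, at 40.2 ± 5.85 and 38.2 ± 1.18 CPM (-0.06 ± 0.10, adjusted p = 0.757). The groups overlapped for all 3.

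None of the 4 Timp inhibitors passed the test, and all had positive fold changes. Timp4 was at 1.95, 2.45, 1.66 and 2.10 CPM in controls and 3.36, 3.11, 2.96 and 3.21 CPM in induced libraries, without overlap, and had a log2 fold change of 0.63 ± 0.19 (limma adjusted p = 0.0677, or 0.0792 without control 1). Timp4 was called higher with array weights (adjusted p = 0.0434) and without the variance trend (adjusted p = 0.0266). Timp1 was at 15.4 ± 2.46 and 17.9 ± 2.60 CPM, Timp2 at 34.6 ± 5.15 and 36.9 ± 4.39, and Timp3 at 40.9 ± 8.88 and 49.7 ± 6.17 CPM (adjusted p = 0.367, 0.689 and 0.267). Timp1, Timp3 and Timp4 lie inside the synapsin genes Syn1, Syn3 and Syn2 on the opposite strand. Syn2, which shares 90 exon bases with Timp4, was at 5.84 ± 1.85 CPM in controls and 6.45 ± 0.275 CPM in induced libraries (adjusted p = 0.594), and Syn3, which shares 1733 exon bases with Timp3, at 2.53 ± 1.07 and 2.76 ± 0.359 CPM (adjusted p = 0.706).

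The Adamts proteases are secreted enzymes that cut proteoglycans and procollagens. Of the 17, 1 rose and 1 fell, where 4.55% and 2.26% of all genes did, so these counts are close to the background. Adamts5, which cuts the proteoglycans aggrecan and versican, was at 2.35, 3.71, 3.01 and 4.86 CPM in controls and at 6.76, 7.06, 7.01 and 5.61 CPM in induced libraries. The groups did not overlap, and control 4 was nearest to the induced libraries. Adamts5 (ENSMUSG00000022894, chromosome 16, 85856173 to 85901828, minus strand) had a log2 fold change of 0.96 ± 0.21 (limma adjusted p = 0.0254) and of 0.79 ± 0.19 without control 1 (adjusted p = 0.025). The call was lost without control libraries 2 or 3 or induced libraries 1, 2 or 3 (adjusted p at most 0.0854). Adamts8 was at 5.86, 5.91, 6.17 and 5.06 CPM in controls and at 3.76, 3.36, 3.46 and 2.46 CPM in induced libraries. Every induced library was below every control. Adamts8 (ENSMUSG00000031994, chromosome 9, 30942562 to 30963838, plus strand) had a log2 fold change of -0.82 ± 0.17 (limma adjusted p = 0.0197) and of -0.81 ± 0.19 without control 1 (adjusted p = 0.0236), and lost its call without control library 2 or induced library 2 (adjusted p at most 0.0647). An antisense gene, Gm29724, shares 489 exon bases with Adamts8.

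Of the 8 leave-outs of a single library, only that of control 1 brought Adamts6, Adamts19 and Adamts20 past the threshold; array weights did so too, and removal of the length and GC trend did for Adamts19. Adamts6 was at 3.21, 8.87, 14.1 and 10.6 CPM in controls and 5.66, 5.46, 5.71 and 8.07 CPM in induced libraries. Control 1 was below all other libraries, and controls 2 to 4 were above all induced ones. Its log2 fold change went from -0.39 ± 0.37 (limma adjusted p = 0.556) to -0.83 ± 0.19 without control 1 (adjusted p = 0.0222). Adamts20, a versican-cutting enzyme of embryonic connective tissue, was at 2.66, 5.91, 7.83 and 4.41 CPM in controls and 3.11, 2.56, 1.90 and 4.01 CPM in induced libraries, and its fold change went from -0.78 ± 0.33 to -1.06 ± 0.27 (adjusted p = 0.176 and 0.0328). Adamts19 was at 2.35, 3.11, 3.01 and 4.21 CPM in controls and 1.95, 1.45, 2.05 and 1.95 CPM in induced libraries, with no overlap between groups, and went from -0.74 ± 0.22 to -0.87 ± 0.22 (adjusted p = 0.0724 and 0.0328). Adamts3, which trims procollagen and cleaves reelin, was at 12.4, 20.6, 23.7 and 31.97 CPM in controls and 7.87, 7.16, 18.1 and 20.1 CPM in induced libraries, with induced libraries 1 and 2 lowest of all 8 (adjusted p = 0.21, and 0.0726 without control 1).

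Neither of the 2 Adamts genes with the most reads passed the test, and their groups overlapped. Adamts9, a versican-cutting enzyme, was at 62.95 ± 10.9 CPM in controls and 68.2 ± 4.82 CPM in induced libraries. Its log2 fold change was 0.13 ± 0.12 (limma adjusted p = 0.547), and 0.01 ± 0.08 without control 1. Adamts10, which binds the fibrillin microfibrils of connective tissue, was at 25.98 ± 6.05 and 22.6 ± 1.22 CPM (adjusted p = 0.468).

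**Figure D4:**
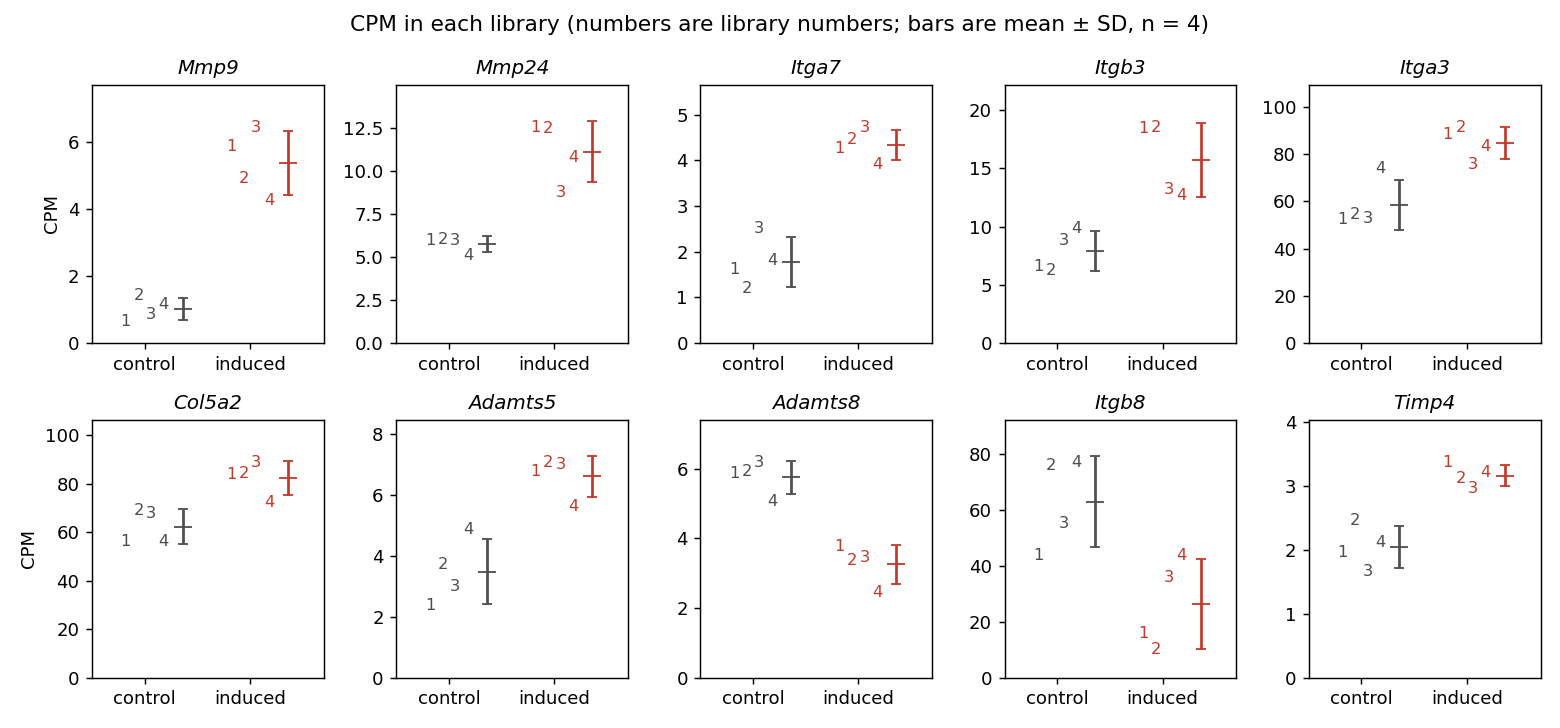
CPM (vertical axes, from 0) of the 8 called genes, Itgb8 and Timp4 in control (grey) and induced (red) libraries. Digits are library numbers and bars are the mean ± SD (n = 4). Control and induced values do not overlap in any panel, although control 1 and induced library 4 nearly meet for Itgb8, and induced libraries 1 and 2 lie apart from 3 and 4 for Itgb3 and Itgb8.

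Genes that work with these proteins were taken from 5 lists. Of 25 measured genes that link integrins to actin, 9 were higher and 0 lower, with a median log2 fold change of 0.27, against 4.55% of all genes called higher. The counts were 10 and 0 without control 1, where 7.66% of all genes were higher. They were 7 and 0 after removal of the length and GC trend, where 6.01% were. Talin, Tln1, which binds integrin beta tails, rose from 166 ± 25.6 to 249.8 ± 6.96 CPM (log2 fold change 0.60 ± 0.10, limma adjusted p = 0.00811). The actin crosslinker Actn4 rose from 325 ± 27.7 to 442 ± 22.2 CPM (0.45 ± 0.08, adjusted p = 0.00811), the kinase Src from 64.9 ± 3.80 to 83.8 ± 1.31 CPM (adjusted p = 0.0114) and the adaptor paxillin, Pxn, from 53.6 ± 4.56 to 68.9 ± 1.87 CPM (adjusted p = 0.0211). Tln1 and Actn4 kept their calls without any single library. Src lost its call without induced library 1 (adjusted p = 0.0504), and Pxn without control library 2 or induced libraries 1 or 2 (at most 0.0814). The neuronal marker sums given above did not overlap between the groups either, and their part in this list's values was not tested.

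Matrix glycoproteins and proteoglycans went both ways, with 2 of 38 higher and 7 lower (4 and 5 without control 1). Over all genes 4.55% were higher and 2.26% lower (7.66% and 3.68% without control 1), so the 2 higher genes with all libraries are near the background. Thbs1, a thrombospondin that binds matrix and cell surface, rose from 71.1 ± 18.7 to 139 ± 9.15 CPM (log2 fold change 1.01 ± 0.16, limma adjusted p = 0.00573) and kept its call without any single library. Its relative Thbs2 fell from 20.99 ± 1.87 to 15.1 ± 0.476 CPM (adjusted p = 0.0202), the secreted protein Spon1 from 116 ± 13.4 to 57.99 ± 22.8 CPM (adjusted p = 0.0217), and the fibulin Fbln1 from 135 ± 8.93 to 102 ± 11.1 CPM (adjusted p = 0.0236). Thbs2 lost its call without control library 2 or induced libraries 1, 2 or 3, Spon1 without control library 2 or induced libraries 1 or 2, and Fbln1 without control library 2 or induced libraries 2 or 3 (adjusted p at most 0.072, 0.0753 and 0.0746).

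Of 26 genes for the modification and crosslinking of collagen, 1 was higher and 1 lower, both with all libraries (all genes 4.55% and 2.26%) and without control 1 (all genes 7.66% and 3.68%), so the count is near the background. Loxl4 rose from 3.11 ± 0.808 to 5.52 ± 0.6 CPM and Loxl2 fell from 102 ± 6.36 to 81.2 ± 7.86 CPM (limma adjusted p = 0.029 and 0.0432); both are lysyl oxidases. Loxl4 lost its call without control library 2 or induced libraries 1, 2 or 3, and Loxl2 without control libraries 2, 3 or 4 or induced libraries 1, 2 or 3 (at most 0.0906 and 0.149). Of 17 matrix receptors other than integrins, 3 were higher and 2 lower (3 and 3 without control 1), beside the same 4.55% and 2.26% of all genes (7.66% and 3.68% without control 1). The neural proteoglycan Cspg5 fell from 10.6 ± 1.53 to 6.23 ± 0.516 CPM (adjusted p = 0.0111) and kept its call without any single library. The syndecans Sdc3 and Sdc4 rose from 53.4 ± 4.34 to 71.2 ± 5.24 and from 107 ± 4.73 to 145 ± 19.6 CPM, and Sdc1 fell from 69.7 ± 7.59 to 54.97 ± 2.28 CPM (adjusted p = 0.0179, 0.0222 and 0.0449). Sdc3 and Sdc4 were each lost without control library 2 or induced libraries 1 or 2 (at most 0.0764 and 0.0857), and Sdc1 without control libraries 2 or 4 or induced libraries 1, 2, 3 or 4 (at most 0.14).

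Of 26 other matrix proteases and inhibitors, 2 were higher and 2 lower (3 and 4 without control 1), where 4.55% and 2.26% of all genes were (7.66% and 3.68% without control 1). A2m, a broad inhibitor of secreted proteases, stood at 87.3, 98.9, 135 and 115 CPM in controls 1 to 4 and at 42.7, 40.9, 50.96 and 45.6 CPM in induced libraries 1 to 4. The groups were well apart, with a log2 fold change of -1.26 ± 0.13 and a limma adjusted p of 0.000645, which held without any single library (at most 0.00445). The membrane protease Adam19 rose from 85.6 ± 13.01 to 136 ± 22.8 CPM, while Bsg, a surface protein that induces metalloproteases, fell from 550.4 ± 49.3 to 449 ± 25.2 CPM (adjusted p = 0.0172 and 0.0495). Adam19 was lost without control library 2 or induced libraries 1 or 2, and Bsg without control libraries 2, 3 or 4 or induced libraries 1, 2, 3 or 4 (at most 0.0653 and 0.129).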

How the data were processed

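The tools the authors list are edgeR 3.20.1, HTSeq 0.9.1 and STAR 2.5.3a, and the build is mm10 (submitters' processing notes, where no roles are stated). The authors deposited 1 table of 14954 genes whose values are a score: reads brought to 1 library size and then rounded up, summing to 19.93 M to 19.96 M per library. Decimal commas had become column breaks, and each line was rejoined by matching its values to its own CPM; 1 line was shifted by 2 cells. The 8 CPM columns and the statistics had lost leading zeros and were not used. Read depths were recovered from the step between values.

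The plan named a count model for raw counts only, so limma 3.58.1 (R 4.3.3) was used, on log2(value + 1) with a variance trend, all 8 libraries, no covariate, two-sided, Benjamini-Hochberg over all 14954 genes, and a threshold of 0.05. No filter was applied. Folds are on the log2(value + 1) scale, which understates the change of low genes. The labels number the differentiations and say no more, and p-values therefore reflect only how these libraries varied, which may be technical. Tested on simulated data in 5 runs of 200 changed genes among 14954, the induced-against-control test recovered 51.3% of 1.5-fold, 74.6% of 2-fold and 96.7% of 4-fold changes, and 5.96% of its calls were false; shared deviations between libraries were not simulated.

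The members and lists were chosen with earlier results of these data known. Genes named were every member called with all libraries or without control 1, the 3 per class with the highest mean CPM, the largest fold change per class, a set of textbook chains, and up to 4 called genes per list, those with the smallest adjusted p (1 of these is not reported here); Lama4, Col4a6, Col3a1, Col1a1, Col1a2, Col11a2 and Mmp23 were added after their values were seen. Transcript lengths and positions came from GENCODE M21 (GRCm38, the same assembly as mm10), and promoters from RefSeq (GRCm38.p6), with 67 of 99 members matched. Alternatives were 2 pseudocounts (0.1 and 10), 2 scalings, a minimum mean of 100 scaled reads, no trend, array weights, a block for the differentiation number, the removal of a spline trend on transcript length and GC, both together, and leaving out each library.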

Additional observations from a re-analysis of the deposited data

Results flagged for a closer look

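Of 198 groups of 4 values (99 genes in 2 groups), 16 held a library set apart from the other 3 by Dixon's test at the 95% level. For independent, normally distributed values this test flags about 1 of 20 groups. The 99 genes share the same 8 libraries and the share over all genes was not computed, so the 16 are not read as an excess. In control library 1, Timp1 was at 19.04 CPM against 13.7 to 14.5 CPM, Itga11 was at 2.15 CPM against 1.15 to 1.30 CPM and Itga6 was at 256 CPM against 324 to 336 CPM in the other libraries of its group. In control library 2, Lamb3 was at 1.80 CPM against 2.91 to 3.11 CPM in the other libraries of its group. In control library 3, Col11a2 was at 14.9 CPM against 7.51 to 8.32 CPM in the other libraries of its group. In control library 4, Col1a2 was at 168 CPM against 123 to 129 CPM, Col3a1 was at 313 CPM against 246 to 254 CPM, Itga3 was at 74.2 CPM against 52.3 to 54.4 CPM and Mmp24 was at 5.06 CPM against 5.96 to 6.01 CPM in the other libraries of its group. In induced library 1, Fn1 was at 1497 CPM against 1403 to 1407 CPM in the other libraries of its group. In induced library 2, Adamts12 was at 7.97 CPM against 10.8 to 11.3 CPM and Adamts19 was at 1.45 CPM against 1.95 to 2.05 CPM in the other libraries of its group. In induced library 3, Adamts10 was at 20.7 CPM against 22.995 to 23.3 CPM in the other libraries of its group. In induced library 4, Adamts6 was at 8.07 CPM against 5.46 to 5.71 CPM, Col2a1 was at 86.3 CPM against 64.7 to 66.8 CPM and Col5a3 was at 2.91 CPM against 1.80 to 1.95 CPM in the other libraries of its group. The called genes among these are Itga3 and Mmp24, both set apart in control 4; without that library their adjusted p values were 0.00457 and 0.0141.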

How the results depend on the processing

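With all 8 libraries, 7 of the 99 genes were higher and 1 lower, and 1019 of all genes changed. Leaving out 1 library at a time gave 3 to 12 higher and 0 to 6 lower members and 308 to 1697 changed genes overall. With array weights 13 members were higher and 8 lower, where 11% and 5.78% of all genes were, and 2507 genes changed. Without the length and GC trend, 10 members were lower, where 5.77% of all genes were, and 1762 genes changed. Lower members numbered 2 with median-of-ratios and 3 with upper quartile scaling, where 2.84% and 3.16% of all genes were lower. They numbered 0 of 70 with a minimum mean of 100 scaled reads, which leaves out Mmp9, Itga7 and Adamts8. Of the 11869 genes kept there, 2.56% were lower. Of all changed genes, 681 were higher and 338 lower, against 536 and 424 with median-of-ratios scaling, 501 and 473 with upper quartile scaling, and 899 and 863 without the length and GC trend. No alternative reversed a called direction among the 38 named members. Mmp9, Itga7 and Mmp24 were called under every alternative in which they were tested. The replicate block, a term for the differentiation number, gave 7 higher and 4 lower members (all genes 3.55% and 1.98%), the added ones being Adamts3, Itgb8 and Lama4. With the length and GC trend also removed, the block gave 9 higher and 11 lower members (all genes 6.07% and 6.1%) and 1820 changed genes. Same-numbered libraries of the 2 groups shared deviations with correlations of 0.030, 0.011, -0.028 and 0.37 over 11869 genes, so the numbers were not taken to pair the libraries, and not every library correlated best with its own number. The cause of these differences was not tested. Depth limits the scarcest genes: Mmp9 rested on 6 to 13 reads per control, and Lamc3 on 2 reads in induced library 2.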
